A study of Mus musculus with 32 samples.

Results

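Chemokine ligands are small secreted proteins that recruit leukocytes bearing the matching receptor, and 10 of their genes are described here across sorted mouse CD4 T cells: Cxcl2, Cxcl3, Cxcl10, Cxcl16, Ccl1, Ccl3, Ccl4, Ccl5, Ccl20 and Xcl1. They were chosen by name as ligands that T cells can make. All 10 were among the 17159 genes that passed the filter on low counts, out of 35968 genes with a transcript in the tables, and every one was tested. Treg, the regulatory T cells (TCRb+CD4+Foxp3+), and Tconv, the Foxp3- remainder of TCRb+CD4+ cells, came by flow sorting from the livers and spleens of male C57BL/6 mice carrying the Foxp3GFP reporter, which marks Foxp3-expressing cells with green fluorescent protein. Mice were controls or received CCl4, a solvent toxic to hepatocytes that is used to induce liver injury and fibrosis. In every population there were 3 libraries from controls and 5 from CCl4 mice, and all mice carried the reporter. The labels give no age, dose or duration of CCl4, do not say what the controls received, and leave it unstated whether libraries are separate mice, so p-values measure the spread between samples, which may be technical.

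In background terms, CXC chemokines of the ELR type such as Cxcl2 and Cxcl3 act on Cxcr2 and draw neutrophils. Cxcl10 is an interferon-inducible ligand of Cxcr3, carried by type 1 T cells and NK cells, and Cxcl16 is a membrane-anchored ligand of Cxcr6. Ccl3, Ccl4 and Ccl5 are secreted by activated effector T cells and NK cells, Ccl1 binds Ccr8, Ccl20 binds Ccr6, and Xcl1, made by CD8 T cells and NK cells, attracts the Xcr1+ subset of dendritic cells. In liver, Cxcr6 is a receptor of tissue-associated T and NKT cells. Many chemokine genes have binding sites for NF-kB, a transcription factor activated by inflammatory and antigen-receptor signals, close to their start.

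The 10 genes lie on chromosomes 1, 5 and 11 of mouse build GRCm38 (GENCODE M21 annotation). Cxcl2 (chr5:90903871-90905938), Cxcl3 (chr5:90786103-90789600), both on the plus strand, and Cxcl10 (chr5:92346638-92348889, minus strand) are on chromosome 5. Ccl3 (chr11:83647844-83649355), Ccl5 (chr11:83525778-83530518), Ccl1 (chr11:82176657-82305690) and Cxcl16 (chr11:70453983-70459984), on the minus strand, and Ccl4 (chr11:83662584-83664683), on the plus strand, are on chromosome 11. Ccl20 (chr1:83116766-83119167, plus strand) and Xcl1 (chr1:164931644-164935527, minus strand) are on chromosome 1. Some members share sequence with other genes, counted on either strand. Of the 31-base words of Cxcl2 transcripts 7.59%, and of those of Cxcl3 5.46%, also occur in another gene, most often in each other. The shares were 18.5% for Cxcl16 (most often with Zmynd15), 14.2% for Xcl1 (with Gm20743) and 4.47% for Cxcl10 (with Art3). What these shared words do to the estimated counts was not measured. The strand setting of the counting is not given in the sources used here.

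Upstream sequences are shown for Cxcl2 and Cxcl3, the 2 members with the smallest adjusted p after CCl4 in liver Treg, and for Cxcl10, which had the opposite sign there. RefSeq (GRCm38.p6) held a start-site window for 7 of the 10 members and none for Cxcl16, Ccl4 or Ccl5. The bases before the annotated start are printed in the direction of the gene, with matches on either strand to the NF-kB consensus in capitals, for Cxcl2 (chr5:90903649-90903870, plus strand), Cxcl3 (chr5:90785851-90786100, plus strand) and Cxcl10 (chr5:92348890-92349139, minus strand).
Cxcl2: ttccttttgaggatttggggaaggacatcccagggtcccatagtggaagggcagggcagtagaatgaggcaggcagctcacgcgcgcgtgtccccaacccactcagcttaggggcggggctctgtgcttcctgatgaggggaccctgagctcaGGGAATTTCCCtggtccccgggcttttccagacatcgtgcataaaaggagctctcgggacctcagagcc
Cxcl3: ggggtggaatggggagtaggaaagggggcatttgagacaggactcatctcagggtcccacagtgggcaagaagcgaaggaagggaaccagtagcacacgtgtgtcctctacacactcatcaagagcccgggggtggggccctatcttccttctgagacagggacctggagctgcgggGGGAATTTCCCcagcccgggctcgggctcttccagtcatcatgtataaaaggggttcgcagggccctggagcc
Cxcl10: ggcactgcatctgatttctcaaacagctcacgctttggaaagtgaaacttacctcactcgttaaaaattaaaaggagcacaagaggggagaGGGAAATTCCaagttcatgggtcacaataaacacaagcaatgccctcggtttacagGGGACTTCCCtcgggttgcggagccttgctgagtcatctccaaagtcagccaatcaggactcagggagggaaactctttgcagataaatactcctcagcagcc
Cxcl2 and Cxcl3 held the same 11-base run, GGGAATTTCCC, which matches on both strands and begins 97 bases before the RefSeq start of Cxcl2 and 73 bases before that of Cxcl3. Cxcl10 held 2 separate matches, at 159 and 103 bases, besides 1 match to the interferon-stimulated response element (GAAANNGAAA) and 1 to an AP-1 site (TGANTCA). Ccl20 held 1 NF-kB match, and Ccl1, Ccl3 and Xcl1 held none of the 3 motifs in this window. Over the 250 bases before all 32851 start sites of the table, 3.9% held an NF-kB match, 2.98% the interferon-stimulated element and 6.75% the AP-1 site. These matches describe letters only, since factor binding was not measured here.

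The sorts matched their labels on Foxp3, the lineage factor that the gate used: mean Foxp3 was 973 and 1050 CPM (counts scaled to library size with TMM factors) in liver Treg and 1057 and 1061 in spleen Treg, against 0.976 to 2.90 CPM in the Tconv groups. Libraries held 24513124 to 75292019 estimated counts. Control libraries 2 and 3 of both spleen populations stood apart: 12 immediate early genes, which rise within minutes of stimulation or handling, summed to 1671 to 2035 CPM in those 4 libraries and to 8292 to 11250 CPM in the other 12 spleen libraries. Beside the main comparisons of the ligands that rest on the spleen controls, values without those 2 libraries per population are given. The counts over gene lists and the receptor values are with all libraries. In liver Treg, CCl4 replicate 3 held 245 summed CPM of 9 hepatocyte markers, against 5.91 to 16.2 in the other 4. The liver Treg controls held 38.8 to 69.9, above those 4 CCl4 libraries and below replicate 3. Since these are bulk samples, more cells making a transcript and more transcript per cell cannot be told apart.

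The ligand most abundant by TPM (transcript abundance per length, within a library) was Ccl5 in every group, and the composition differed between the populations. In liver Treg of controls the 10 ligands summed to 398 ± 59.6 TPM (SD, n = 3), of which Ccl5 gave 54.7%, Cxcl10 27.8% and Cxcl2 10.5%. After CCl4 the sum was 835 ± 63.3 TPM (n = 5), with 43.3% from Ccl5, 38.6% from Cxcl2 and 7.44% from Cxcl10. Liver Tconv had the highest sums, 1158 ± 611 TPM in controls and 1820 ± 874 TPM after CCl4, of which Ccl5 made 80.5% and 87.6%. Spleen populations had sums of 108 ± 12.7 and 152 ± 22.8 TPM in Treg and of 191 ± 28.7 and 288 ± 143 TPM in Tconv, control first. Ccl5 was thus over 50% of each sum except that of liver Treg after CCl4, where Cxcl2 had a similar share. These sums count all transcripts of a gene, retained-intron ones included. On coding transcripts alone the 2 were further apart in that group, with 358 ± 83.1 TPM of Ccl5 and 184.7 ± 49.8 TPM of Cxcl2.

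**Figure D1:**
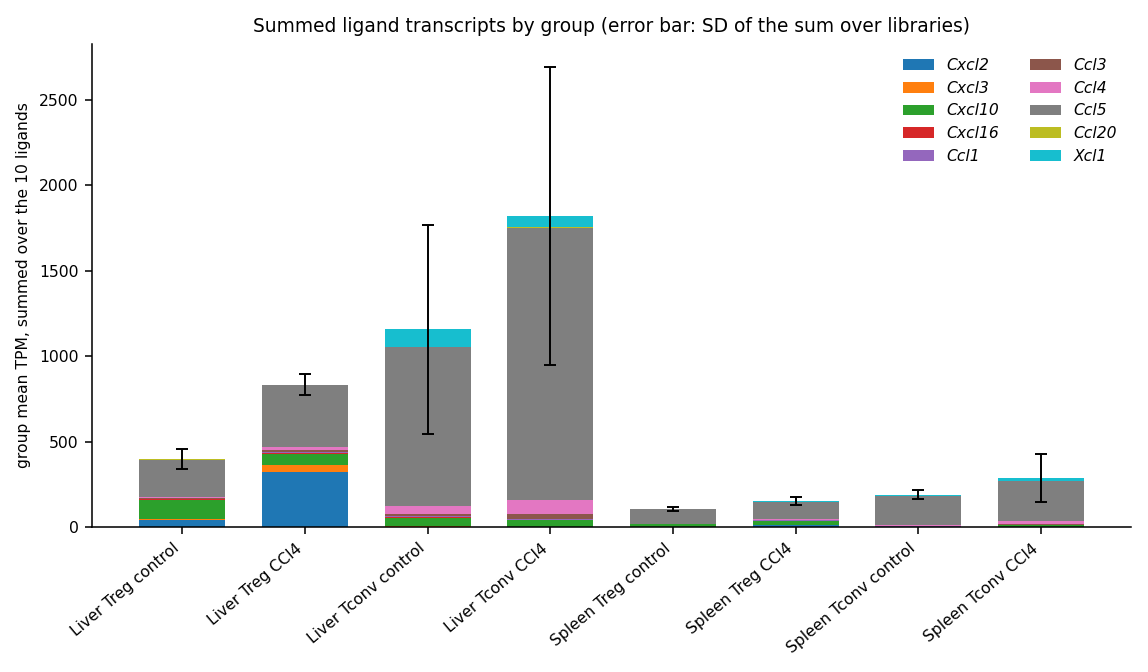
Stacked bars of the group mean TPM of the 10 ligands (y axis, TPM) in the 8 groups (x axis), with the SD of the summed TPM over 3 control or 5 CCl4 libraries. Ccl5 is the largest part of every bar, and Cxcl2 is 38.6% of the bar of liver Treg after CCl4. Retained-intron transcripts are included.

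The first question was how CCl4 changed the ligands in each population. In liver Treg, Cxcl2, Cxcl3 and Xcl1 rose and no member fell, so 3 of 10 were called higher, where 7.55% of all genes tested were called higher. The median log2 change over the 10 members was 1.59, against -0.0008 over all genes. The CCl4 libraries lay wholly above the controls for 6 members (Cxcl2, Cxcl3, Ccl1, Ccl3, Ccl5 and Xcl1), where 10% of all genes did so. Calls are at a Benjamini-Hochberg adjusted p under 0.05 over all genes in edgeR's quasi-likelihood fit, and each ± beside a log2 change is an approximate standard error.

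Cxcl2, a neutrophil attractant, stood at 38.0, 22.5 and 19.7 CPM in the 3 liver Treg controls and at 123, 197, 261, 147 and 191 CPM in the 5 CCl4 libraries. The lowest CCl4 library was thus above the highest control. The change was 2.78 ± 0.44 on the log2 scale (adjusted p = 4.38e-05), a ratio of means of 6.87. Without the hepatocyte-rich replicate 3, which had the highest Cxcl2, it was 2.62. About 53.4% of the Cxcl2 counts fell on the main coding transcript and 34.8% on a retained-intron transcript, and the coding transcripts alone were at 25.8 ± 7.55 TPM in controls and 184.7 ± 49.8 TPM after CCl4.

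Cxcl3, of the same type and also on chromosome 5, stood lower in absolute terms. Its CPM were 3.47, 3.62 and 2.26 in controls and 13.8, 26.4, 35.9, 22.6 and 28.3 after CCl4, with no overlap. The log2 change was 3.02 ± 0.39 (adjusted p = 1.95e-06). The order of the 5 CCl4 libraries was the same for both genes, from replicate 1 as the lowest to replicate 3 as the highest, except that replicates 2 and 5 changed places.

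Xcl1, the dendritic cell attractant, was near its detection limit in liver Treg. The controls were at 0.10, 0.12 and 0 CPM, 9 estimated counts in all, and the CCl4 libraries at 0.93, 0.59, 0.18, 1.05 and 0.51 CPM, 112 counts in all. Every CCl4 library was above every control, yet all were below 1.1 CPM, where liver Tconv had 5.18 to 33.3. The log2 change was 3.00 ± 0.84 (adjusted p = 0.0137). Without control replicate 3, the library at 0, the adjusted p was 0.0686.

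Ccl5, which recruits T cells and monocytes, stood at 35.4, 38.1 and 38.1 CPM in liver Treg controls and at 97.7, 60.5, 48.1, 75.9 and 78.3 CPM after CCl4. The groups did not overlap, but the log2 change of 0.95 ± 0.36 did not pass the test (adjusted p = 0.0726). It passed with the liver Treg libraries fitted alone and in DESeq2, with a lowest adjusted p of 0.00917 over the alternatives. Ccl3, on the same chromosome, had 0.96, 2.10 and 0.64 CPM in controls and 4.85, 3.72, 2.22, 5.95 and 6.32 CPM after CCl4. Its log2 change of 1.89 ± 0.81 also missed the threshold (adjusted p = 0.119) and also passed in those 2 settings (lowest adjusted p = 0.0225). Ccl4 overlapped between groups, with 1.67, 3.06 and 0.88 CPM in controls and 4.53, 2.45, 1.86, 6.88 and 7.63 CPM after CCl4 (log2 change 1.30 ± 0.80, adjusted p = 0.313).

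Cxcl10, the interferon-inducible ligand, was the member with a sizeable negative value. It stood at 81.1, 70.9 and 40.7 CPM in controls and at 34.0, 33.1, 36.1, 50.5 and 31.3 CPM after CCl4. The lowest control fell within the CCl4 range. The log2 change was -0.80 ± 0.31 (adjusted p = 0.0803) and it passed the test with the libraries fitted alone, with sample number as a block, or without control replicate 3 (lowest adjusted p = 0.0306). Of 10 other interferon response genes, 6 fell in the same comparison and none rose, where 7.34% of all genes were called lower, among them Irf7, a transcription factor of the interferon response (log2 change -0.94 ± 0.11, adjusted p = 4.61e-07). Between tissues the direction differed. After CCl4 the 10 genes summed to 700 to 948 CPM in liver Treg and 1601 to 2063 CPM in spleen Treg, while Cxcl10 was higher in liver Treg. In controls the sums overlapped, at 1078 to 1597 and 1472 to 1731 CPM.

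Cxcl16, the Cxcr6 ligand, differed little in liver Treg, at 6.83, 9.57 and 4.98 CPM in controls and 6.10 to 10.5 CPM after CCl4 (log2 change 0.17 ± 0.35). Ccl20 stood at 1.49, 0.48 and 2.16 CPM in controls and between 0.91 and 1.07 CPM after CCl4 (log2 change -0.48 ± 0.73). Ccl1 had 16 estimated counts over the 3 controls, 0.10 to 0.20 CPM, and 0.24 to 1.42 CPM after CCl4 (log2 change 2.10 ± 0.92, adjusted p = 0.128).

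In liver Tconv of the same treatment no member was called in either direction, where 0.326% of all genes were, 56 in number, and 2223 genes had an unadjusted p under 0.05. No member was called there by DESeq2 either. None of the 10 members had groups that did not overlap, where 6.65% of all genes did, and the members' median log2 change was 0.05 against -0.01 over all genes. Cxcl2 stood at 0.57, 1.32 and 3.20 CPM in controls and at 1.23, 0.74, 0.38, 0.20 and 0.98 CPM after CCl4 (log2 change -1.35 ± 0.55, not called). Ccl5 stood at 140.5, 281.8 and 140.1 CPM in controls and at 306.6, 495.5, 135.5, 354.2 and 599.8 CPM after CCl4, a log2 change of 1.01 ± 0.35 (adjusted p = 0.207). Replicate 3 of the CCl4 group lay below all the controls while the other 4 lay above them. The libraries of this population were widely spread for the effector ligands: Ccl4 ran from 3.04 to 31.98 CPM in controls and from 7.60 to 55.3 CPM after CCl4. In the same libraries Zbtb16, which encodes PLZF, the defining factor of NKT cells, fell from 25.1 ± 10.7 to 3.79 ± 1.82 CPM (log2 change -2.73 ± 0.61, adjusted p = 0.0408), the only 1 of 7 NKT-like markers called. NKT cells can carry TCRb and CD4, and their part in these values was not tested.

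In spleen, Cxcl2 rose in Treg, 1 of 10 members where 0.758% of all genes were called higher. Its CPM were 3.51, 0.84 and 0.46 in controls and 4.70, 6.77, 7.67, 5.63 and 9.37 after CCl4 (log2 change 2.16 ± 0.49, adjusted p = 0.0248). Control replicates 2 and 3, the libraries low in immediate early genes, were the lowest 2, and without them the log2 change was 0.95 (adjusted p = 0.789). Leaving out control 2 alone gave an adjusted p of 0.264 and control 3 alone one of 0.197. The neutrophil and macrophage markers moved in the same direction here: 3 of 18 (S100a8, C1qa and C1qb) rose in spleen Treg and the summed level was 26.6 to 33.9 CPM in controls and 78.5 to 140 CPM after CCl4, with Vsig4 at 0 in every library. Their part in the Cxcl2 value was not tested. Cxcl2, Cxcl10 and Cxcl16 did not overlap between the spleen Treg groups, 3 of 10 members, where 6.03% of all genes lay wholly higher, and the median over the members was 0.69 against 0.0033 over all genes.

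In spleen Tconv, Cxcl10 rose, 1 of 10 members where 0.653% of all genes were called higher. It stood at 2.50, 1.26 and 1.69 CPM in controls and at 4.46, 6.41, 7.12, 10.1 and 5.90 CPM after CCl4 (log2 change 1.86 ± 0.37, adjusted p = 0.0125). The controls did not overlap the CCl4 libraries, and here the retained control, replicate 1, was also the highest control. Without control replicates 2 and 3 the log2 change was 1.43 and not called, and leaving out control 2 or 3 alone gave adjusted p of 0.187 and 0.141. In spleen Treg Cxcl10 had 12.8, 7.53 and 4.78 CPM in controls and 16.2, 16.8, 17.9, 20.6 and 15.9 CPM after CCl4, a log2 change of 1.07 ± 0.33 that missed the threshold (adjusted p = 0.120) and was 0.46 without control replicates 2 and 3. In spleen Tconv, groups did not overlap for Cxcl3 and Cxcl10, 2 of 10 members, where 4.1% of all genes lay wholly higher. Cxcl2, Cxcl3 and Ccl20 were at or under 3 counts over the 3 spleen Tconv controls, the floor used here, and get no fold change there. The median over the other 7 members was 1.15.

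**Figure D2:**
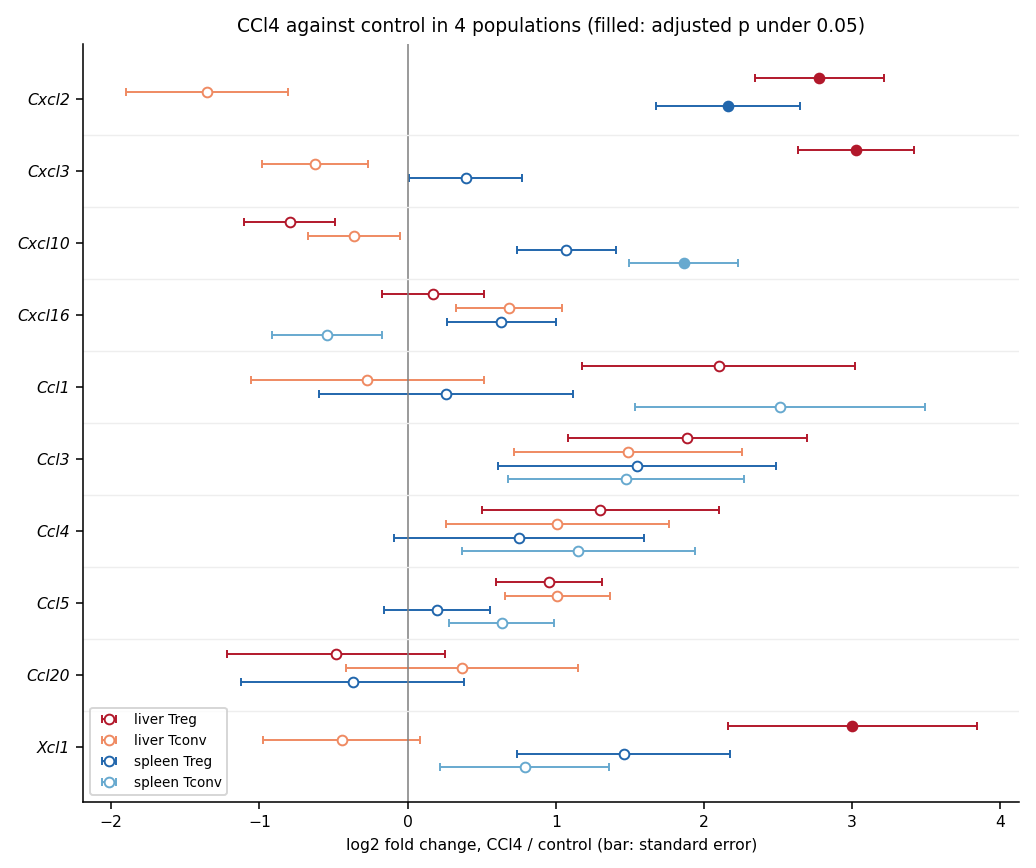
Log2 fold change of each ligand, CCl4 over control (x axis, bars are approximate standard errors), in the 4 populations. Filled points passed an adjusted p under 0.05: Cxcl2, Cxcl3 and Xcl1 in liver Treg, Cxcl2 in spleen Treg and Cxcl10 in spleen Tconv, and the 3 members at the floor in spleen Tconv controls are left out there.

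Differences between these responses were tested in the same fit. The response of liver Treg exceeded that of liver Tconv for Cxcl2 by 4.13 ± 0.68 (adjusted p = 0.000378), for Cxcl3 by 3.65 ± 0.51 (adjusted p = 4.17e-05) and for Xcl1 by 3.45 ± 0.99 (adjusted p = 0.0479), 3 of 10 members where 1.88% of all genes were called higher. The Xcl1 difference missed the threshold in 14 of 22 alternatives, with adjusted p from 0.00644 to 0.142. Against spleen Treg, the response of liver Treg was larger for Cxcl3 by 2.63 ± 0.52 (adjusted p = 0.00222), 1 member where 2.02% of genes were called higher, and smaller for Cxcl10 by -1.87 ± 0.45 (adjusted p = 0.0114), 1 member where 3.46% were called lower. Both differences missed the threshold without spleen controls 2 and 3, at 2.49 for Cxcl3 (adjusted p = 0.0516) and -1.25 for Cxcl10 (adjusted p = 0.314), and that of Cxcl10 also missed it without spleen Treg control 3 alone (adjusted p = 0.0588). The Cxcl2 response did not differ detectably between liver and spleen Treg (0.62 ± 0.62, adjusted p = 0.660), and without spleen controls 2 and 3 the difference was 1.83 (adjusted p = 0.154). No member was called in edgeR's fit without a block between liver and spleen Tconv, where 0.0874% of genes were and 1740 had an unadjusted p under 0.05, or between spleen Treg and spleen Tconv, where 0% of genes were called and 734 had an unadjusted p under 0.05. In the first of these Cxcl10 had -2.22 ± 0.48 (adjusted p = 0.0628) and was called by DESeq2 and by edgeR with sample number as a block (adjusted p = 0.0329). DESeq2 called none in the second. Comparisons that share a group share its libraries.

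**Figure D3:**
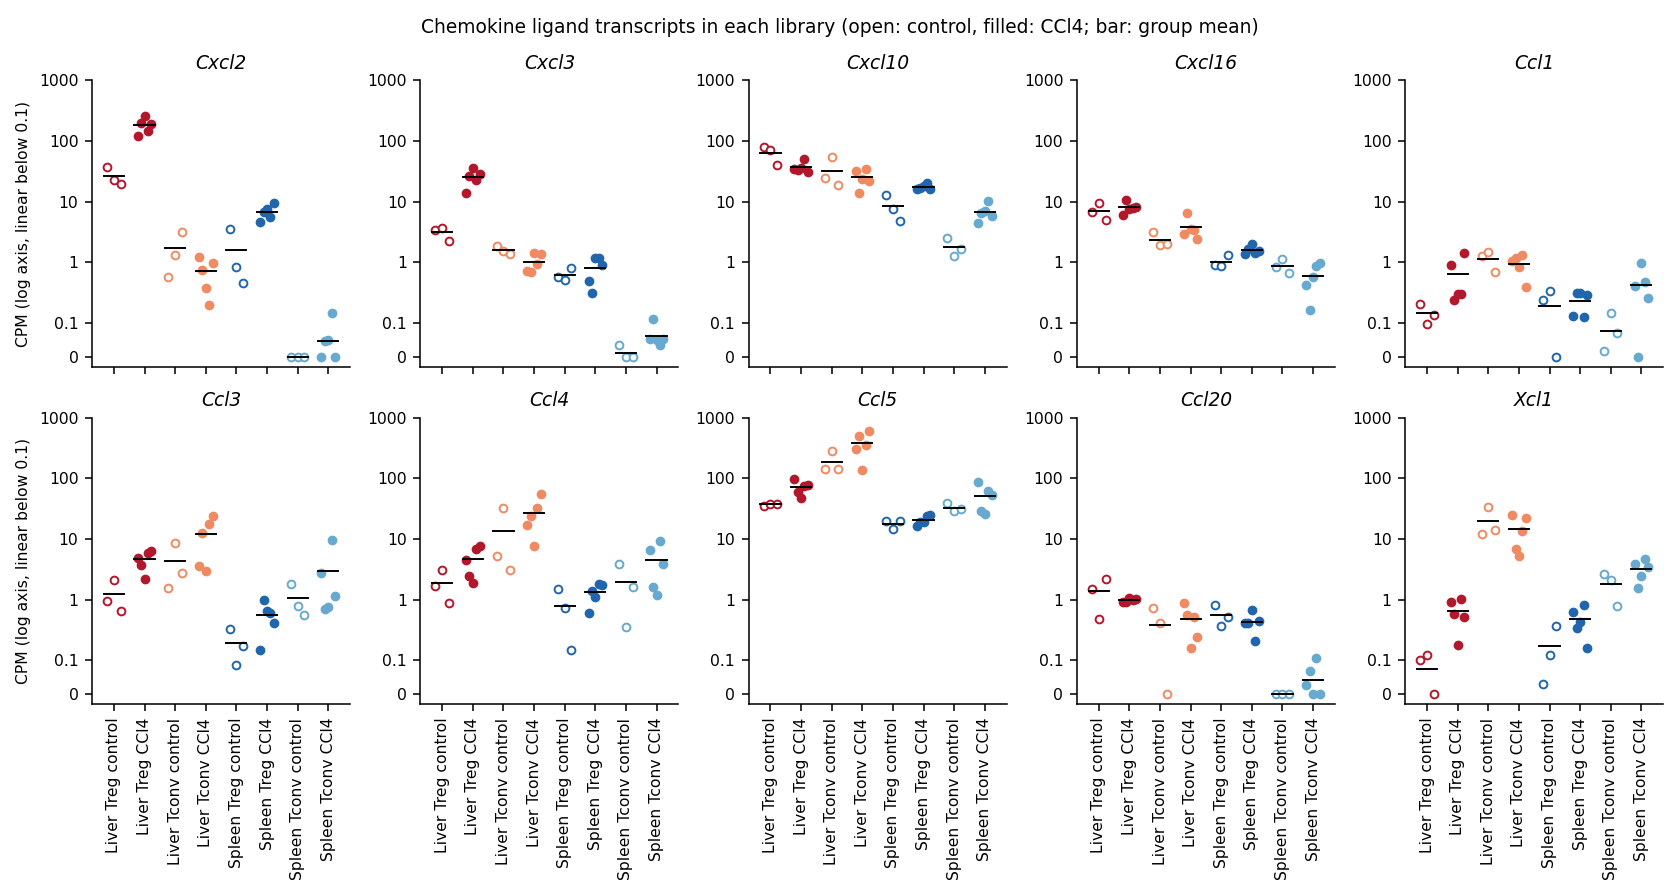
CPM of each ligand in all 32 libraries (y axis, log scale that is linear below 0.1 CPM), grouped by tissue, cell type and treatment on the x axis, with open points for controls, filled points for CCl4 and a bar at the group mean. Liver Treg after CCl4 hold 123 to 261 CPM of Cxcl2, above every other library, and liver Tconv hold the highest Ccl5 and Xcl1.

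The second question was how the tissue of origin mattered, with liver and spleen compared over both treatments. In Treg, 8 of 10 members were higher in liver and none lower, where 30.1% of all genes were called higher. For 6 of them every liver library lay above every spleen library of the same treatment (Cxcl2, Cxcl3, Cxcl10, Cxcl16, Ccl3 and Ccl5), where 12.9% of genes did so. The largest log2 difference was that of Cxcl2, 4.45 ± 0.34 (adjusted p = 1.12e-11), followed by Cxcl3 at 3.64 ± 0.28, Ccl3 at 2.90 ± 0.61, Cxcl16 at 2.56 ± 0.26 and Cxcl10 at 2.02 ± 0.23. Ccl5 was 1.44 ± 0.25 higher. Within treatments, the ratio of means of Cxcl3, liver over spleen, was 4.98 in controls and 31.3 after CCl4. That of Cxcl10 was 7.69 in controls and 2.12 after CCl4. Ccl4 (1.54 ± 0.57, adjusted p = 0.0219) lost its call without spleen controls 2 and 3, without spleen Treg control 3 alone or without liver Treg control 2 (highest adjusted p = 0.238), and Ccl20 (1.24 ± 0.54, adjusted p = 0.0483) lost it in 17 of 23 alternatives. Ccl1 and Xcl1 did not pass (0.51 ± 0.62 and -0.33 ± 0.56). Without spleen controls 2 and 3 the other 6 were still called, from 1.37 for Ccl5 to 3.84 for Cxcl2. The members' median was 1.78, against 0.04 over all genes. All 9 hepatocyte markers were also higher in the liver libraries of both cell types, while of the 18 neutrophil and macrophage markers 4 were higher and 9 lower in liver Treg. Of the 12 immediate early genes, 6 were higher and 2 lower in liver Treg. The part of other cells or of handling in the liver excess was not tested.

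In Tconv all 10 members were higher in liver, where 27.2% of genes were called higher, and 6 had no overlap within either treatment (Cxcl2, Cxcl3, Cxcl10, Cxcl16, Ccl5 and Xcl1), where 11.5% of genes had none. Of the 7 members above the floor in every group, Cxcl10 had the largest difference (3.01 ± 0.25, adjusted p = 4.16e-11), then Xcl1 (2.81 ± 0.42), Ccl5 (2.70 ± 0.26), Ccl4 (2.67 ± 0.56), Ccl1 (2.57 ± 0.63), Cxcl16 (2.05 ± 0.26) and Ccl3 (2.04 ± 0.55). The median of those 7 was 2.67, against 0.04 over all genes. Cxcl2 and Ccl20 were at 0 in the 3 spleen Tconv controls. Against the floor of 3 counts over that group, liver Tconv controls were at least 80.2-fold higher in Cxcl2 and at least 17.9-fold higher in Ccl20, although their own levels were only 1.70 ± 1.36 and 0.38 ± 0.37 CPM. Without spleen controls 2 and 3 Ccl3 lost its call (1.65, adjusted p = 0.0936), and the other 6 members above the floor were still called, from 2.07 for Cxcl16 to 3.50 for Ccl1. With all libraries, 8 of 12 immediate early genes were also higher in liver Tconv and none lower. So were 5 of 8 dendritic cell markers tested, none lower, while of 18 neutrophil and macrophage markers 3 were higher and 6 lower. The part of other cells or of handling in the liver excess of Tconv was not tested.

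Xcl1, Ccl5 and Cxcl10 had a larger liver excess in Tconv than in Treg. The difference of the 2 liver excesses, Treg minus Tconv, was -3.14 for Xcl1 (adjusted p = 0.0014), -1.27 for Ccl5 (adjusted p = 0.0101) and -0.999 for Cxcl10 (adjusted p = 0.0296). With Cxcl3 and Ccl20, whose values rest on the empty spleen Tconv controls, 5 of 10 members were called lower, where 12.4% of genes were. Without spleen controls 2 and 3 none of the 5 was called. Cxcl10 (-1.09, adjusted p = 0.0848) and Ccl5 (-1.22, adjusted p = 0.119) then had similar values, while Xcl1 (-1.65, adjusted p = 0.639) and Cxcl3 (-0.97, adjusted p = 0.378) had smaller ones, and Ccl20 had an adjusted p of 0.0558. The Cxcl10 difference also lost its call without any 1 of liver Treg control 3, liver Tconv control 2, spleen Treg control 1 and spleen Tconv controls 2 and 3, and that of Cxcl3 without either of the last 2.

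The third question was which cell type carried which ligand. In liver the members divided evenly: 5 were higher in Treg, where 24.7% of genes were, and 5 were higher in Tconv, where 27.1% of genes were called lower in Treg. Higher in Treg were Cxcl2 (5.95 ± 0.37, adjusted p = 2.06e-13), Cxcl3 (2.80 ± 0.27), Cxcl16 (1.34 ± 0.25), Cxcl10 (0.76 ± 0.22, adjusted p = 0.00494) and Ccl20 (1.47 ± 0.55, adjusted p = 0.0257). These values average control and CCl4. Within treatments, the ratio of means of Cxcl2, Treg over Tconv, was 15.7 in controls and 259.5 after CCl4. That of Cxcl3 was 1.95 in controls and 24.7 after CCl4. Higher in Tconv were Xcl1 (-6.18 ± 0.54, adjusted p = 6.68e-11), Ccl4 (-2.69 ± 0.56), Ccl5 (-2.36 ± 0.26), Ccl1 (-1.78 ± 0.60, adjusted p = 0.014) and Ccl3 (-1.61 ± 0.54, adjusted p = 0.0132). The Treg over Tconv ratio of Xcl1 was 0.0037 in controls, on 9 Treg counts, and 0.045 after CCl4. All 4 CXC ligands were thus on the Treg side, and 4 of the 5 CC ligands with Xcl1 were on the Tconv side. Within each treatment, libraries did not overlap for Cxcl2 and Cxcl3 on the Treg side, 2 members where 10.7% of genes lay apart, and for Ccl5 and Xcl1 on the Tconv side, 2 members where 12.8% did. The calls of Ccl3 and Ccl20 were lost without 1 library each, Tconv control replicate 2 (adjusted p = 0.0945) and Treg control replicate 3 (adjusted p = 0.0815).

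In spleen the 4 CXC ligands and Ccl20 were also higher in Treg, 5 of 10 where 19.4% of genes were, and Xcl1, Ccl3, Ccl4 and Ccl5 were higher in Tconv, 4 of 10 where 20.3% of genes were called lower in Treg. Cxcl2, Cxcl3, Cxcl10 and Ccl20 did not overlap between the cell types within either treatment, 4 members where 10.1% of genes lay wholly higher in Treg, and neither did Ccl5 and Xcl1, 2 members where 9.55% lay wholly lower. Cxcl10 was 1.76 ± 0.24 higher in Treg and Cxcl16 0.84 ± 0.26 higher. In controls Cxcl2 was at least 75.8-fold and Ccl20 at least 26.5-fold higher in Treg than the floor of the empty Tconv group. After CCl4, spleen Treg had 6.83 ± 1.81 CPM of Cxcl2 (n = 5) and spleen Tconv 8 estimated counts over 5 libraries. Xcl1 was lower in Treg by -3.04 ± 0.46 and Ccl5 by -1.10 ± 0.25. Ccl1 had no call (0.27 ± 0.61). In the same contrast 4 of 7 B cell markers, 4 of 18 neutrophil and macrophage markers and 3 of 8 dendritic cell markers tested were higher in spleen Treg. Of all genes 19.4% were, and 1 dendritic cell marker was lower. The 7 B cell markers summed to 25.7 to 44.8 CPM in the spleen Treg libraries and to 4.70 to 11.0 CPM in those of Tconv. The part of these cells in the ligand values was not tested. Without spleen controls 2 and 3, Cxcl16, Ccl3 and Ccl4 lost their calls (adjusted p = 0.178, 0.0646 and 0.176) at similar values (0.78, -2.44 and -1.55), and the other 6 members were still called. Ccl4 (-1.56 ± 0.57, adjusted p = 0.0299) also lost its call without any 1 of spleen Treg controls 2 and 3, spleen Tconv control 1 and spleen Tconv CCl4 library 4.

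**Figure D4:**
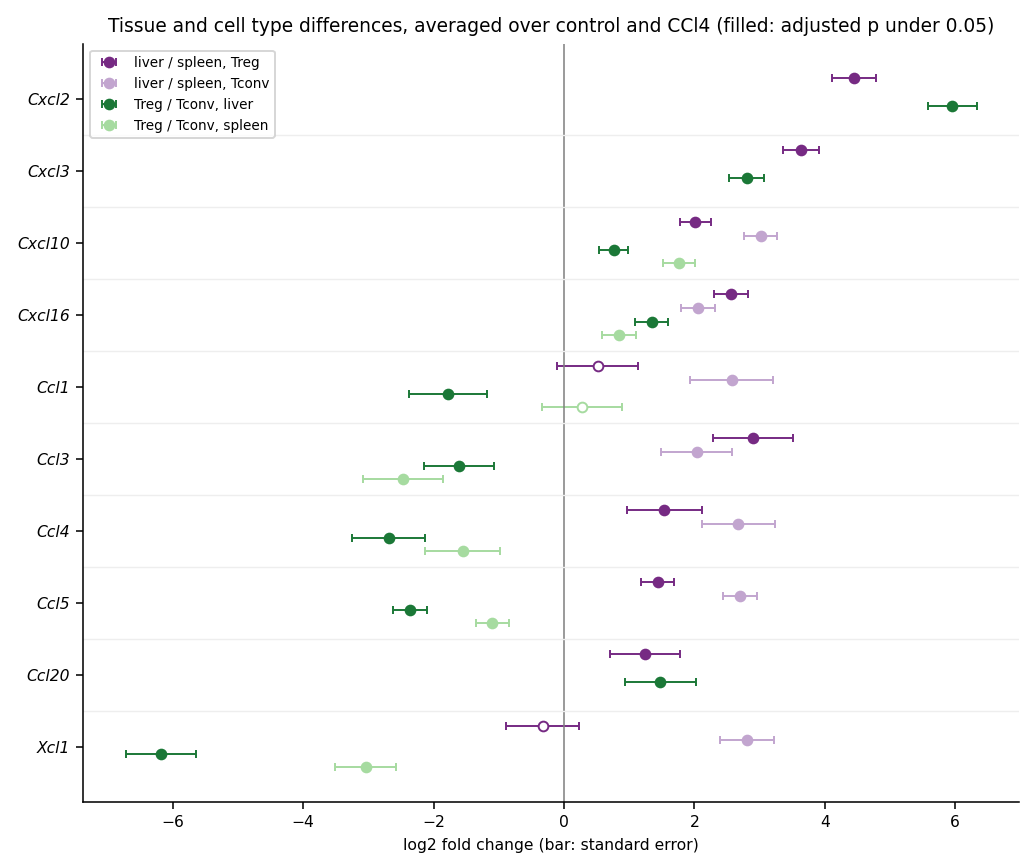
Log2 differences of each ligand between liver and spleen (purple, within each cell type) and between Treg and Tconv (green, within each tissue), averaged over control and CCl4, with approximate standard errors on the x axis and filled points at an adjusted p under 0.05. The 4 CXC ligands and Ccl20 are right of 0 in the Treg against Tconv contrast of liver and Ccl1, Ccl3, Ccl4, Ccl5 and Xcl1 are left of it, and members at the floor in spleen Tconv controls are left out of the 2 contrasts that use them.

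The order of the groups differed by ligand. Cxcl2 ran from liver Treg after CCl4 (183.6 ± 53.1 CPM) to liver Treg controls (26.7 ± 9.85), spleen Treg after CCl4 (6.83 ± 1.81), and then liver Tconv controls (1.70 ± 1.36) and spleen Treg controls (1.60 ± 1.66), which overlapped. Cxcl3 led in the same 2 groups, at 25.4 ± 8.08 and 3.11 ± 0.75 CPM, but its next group was liver Tconv controls at 1.60 ± 0.26. Cxcl10 ran from liver Treg controls (64.3 ± 21.0) through the other 3 liver groups, each overlapping the next, to spleen Treg after CCl4 (17.5 ± 1.92) and spleen Tconv controls (1.82 ± 0.63). Cxcl16 had 8.03 ± 1.59 and 7.13 ± 2.31 CPM in liver Treg, 3.78 ± 1.57 and 2.37 ± 0.70 in liver Tconv and 0.60 to 1.60 in the spleen groups.

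Among the CC ligands, Ccl5 ran from liver Tconv after CCl4 (378 ± 178.5 CPM) and liver Tconv controls (187.5 ± 81.7), which overlapped, to liver Treg after CCl4 (72.1 ± 18.8) and spleen Treg controls (17.9 ± 3.06). Ccl3 and Ccl4 had their highest mean in liver Tconv after CCl4 (12.3 ± 9.11 and 27.2 ± 18.2 CPM), and each group of theirs overlapped the next in the order. Ccl1 was at most 1.51 CPM in any library, and its highest mean was 1.15 ± 0.42 CPM in liver Tconv controls. Ccl20 was also low throughout, with the highest mean in liver Treg controls (1.38 ± 0.84 CPM). Xcl1 had 19.8 ± 11.7 and 14.6 ± 8.82 CPM in the liver Tconv groups, control first, 1.85 ± 0.97 and 3.20 ± 1.24 CPM in those of spleen, and at most 1.05 in any Treg library.

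Likeness between profiles across the 32 libraries is described here by Pearson's r of log2(CPM + 1), which shares the tissue and cell type contrasts above and has no test. Cxcl2 and Cxcl3 correlated at 0.92, Cxcl3 and Cxcl16 at 0.83, Ccl3 and Ccl4 at 0.92, Ccl4 and Ccl5 at 0.93 and Ccl5 and Xcl1 at 0.84. Ccl20 and Xcl1 gave -0.32. Among the 9321 named genes averaging 5 CPM or more, the profile most like Cxcl2 was that of Nckap5 (0.97), then Ctsh, a lysosomal protease (0.97), and Npnt, an extracellular matrix protein (0.97). Most like Cxcl3 were Galc (0.97), a lysosomal galactosidase, Gpr65 (0.96), a proton-sensing receptor, and Nrip1 (0.96). Cxcl10 was most like Cd274 (0.93), which encodes the checkpoint ligand PD-L1, Pmaip1 (0.93) and Snx18 (0.92), and Cxcl16 most like Gprc5a, Mxi1 and the NF-kB target Birc3 (0.94 each). Most like Ccl5 were Nkg7 (0.94), a cytotoxic granule protein, Tbx21 (0.92), which encodes the type 1 regulator T-bet, and Emp1 (0.92). Nkg7 (0.89) and Tbx21 (0.85) also led for Ccl4, with Cdc42 (0.86) between them. Xcl1 was most like the NK receptor gene Klrk1 (0.97), Il12rb2 (0.95) and Tbx21 (0.95). Ccl3 was most like Ccdc127 (0.83), Sytl3 (0.80) and Gng2 (0.80), Ccl20 like Mier1 (0.87), Arid5b (0.86) and Trp53inp1 (0.86), and Ccl1, the sparsest, like Cd164, Pxdc1 and Bcl2a1d (0.75, 0.75 and 0.74).

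Of the receptors that read these ligands, 9 of 11 were tested. In liver Treg after CCl4, 3 rose and none fell, where 7.55% of all genes were called higher. Ccr8, the receptor of Ccl1, went from 225 ± 19.03 to 735.5 ± 118 CPM (log2 change 1.71 ± 0.23, adjusted p = 4.45e-06). Cxcr6, the receptor of Cxcl16, went from 33.8 ± 8.07 to 121 ± 29.7 CPM (1.84 ± 0.34, adjusted p = 0.000333), and Xcr1 from 1.88 ± 0.29 to 3.85 ± 0.84 CPM (1.03 ± 0.34, adjusted p = 0.0405). Ccr8 also rose in spleen Treg (1.09 ± 0.23, adjusted p = 0.0146), where 0.758% of all genes were called higher, and no receptor was called in either Tconv population. In liver against spleen, 8 of 9 were higher in Treg and 8 of 9 in Tconv, none lower, where 30.1% and 27.2% of all genes were called higher. Between the cell types of liver, 6 receptors were higher in Treg and 2 in Tconv, Xcr1 (-1.20 ± 0.24) and Cxcr6 (-2.88 ± 0.24). The shares of all genes there were 24.7% higher and 27.1% lower in Treg. Cxcr2, the receptor of Cxcl2 and Cxcl3, was at 0.56 to 1.78 CPM on average in all groups.

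Of 30 other chemokine ligand genes, 16 passed the filter. In liver Treg after CCl4 only Cxcl5 was called, another ligand of Cxcr2, at 0.39 ± 0.17 CPM in controls and 2.84 ± 0.84 after CCl4 (log2 change 2.84 ± 0.86, adjusted p = 0.0228). That was 1 of 16, where 7.55% of all genes were called higher. Cxcl1, which also acts on Cxcr2, stood at 3.32 ± 2.26 and 7.88 ± 3.14 CPM (1.24 ± 0.79, adjusted p = 0.331). None was called after CCl4 in the other 3 populations. Liver exceeded spleen for 7 of the 16 in Treg and for 9 in Tconv, none lower, Cxcl1 first in both (5.26 ± 0.71 and 5.42 ± 0.80). Of all genes 30.1% and 27.2% were called higher there. In liver, Cxcl1, Cxcl5, Cxcl11 and Ccl2 were higher in Treg than in Tconv and none was lower. These 4 of 16 were close to the share of all genes, 24.7%. In spleen, Ccl27a and Cx3cl1 were higher in Treg, 2 of 16 where 19.4% of all genes were, and none was lower.

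Of 8 NF-kB feedback genes, inhibitors and subunits that the factor itself induces, 7 were higher in Treg than in Tconv in liver and 7 in spleen, none lower. Of all genes 24.7% and 19.4% were called higher there. In liver against spleen, 6 were higher in Treg and 8 in Tconv, where 30.1% and 27.2% of all genes were. After CCl4 in liver Treg, Nfkbia, which encodes the inhibitor IkB-alpha, rose by 0.69 ± 0.22 (adjusted p = 0.0322) and Nfkbiz by 0.74 ± 0.26 (adjusted p = 0.0494), the other 6 not being called. The share of all genes called higher there was 7.55%. In spleen Treg Nfkbia, Nfkbiz and Tnfaip3 rose, where 0.758% of all genes were called higher. The 8 genes summed to 2828, 1402 and 1345 CPM in the spleen Treg controls, lowest in replicates 2 and 3, and to 3684 to 4702 CPM after CCl4. Of 10 type 1 and cytotoxic genes, 8 were lower in Treg than in Tconv of liver and 1 was higher, where 27.1% and 24.7% of all genes were. Tbx21 was lower by -2.71 ± 0.23 and Nkg7 by -3.07 ± 0.25, in the direction of Ccl3, Ccl4, Ccl5 and Xcl1. After CCl4 none of the 10 was called in liver Tconv, where 0.326% of all genes were. In liver Treg 1 fell, Fasl, a death receptor ligand (-0.74 ± 0.24, adjusted p = 0.0338), and none rose, where 7.34% of all genes were called lower.

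Markers of cells other than CD4 T cells were read beside these results. In liver Treg the 18 neutrophil and macrophage markers summed to 34.8 to 77.5 CPM in controls and 26.5 to 60.7 CPM after CCl4. None of the 18 rose and Clec4f fell. Of other lists, 1 of 6 stellate and fibroblast markers tested, Col1a2, rose in liver Treg after CCl4 (3.24 ± 0.93, adjusted p = 0.0163), with summed levels of 4.99 to 11.0 CPM in controls and 6.84 to 59.3 CPM after CCl4. The endothelial markers Stab2 and Clec4g fell, 2 of 6, and so did Cyp3a11, 1 of 9 hepatocyte markers. In this comparison 7.55% of all genes were called higher and 7.34% lower. Of 8 dendritic cell markers tested, Xcr1, also counted above as a receptor, rose and Itgax fell. The 9 dendritic cell markers listed summed to 38.4 to 58.0 CPM in controls and 45.55 to 77.9 CPM after CCl4. The part of any of these cells in the Cxcl2 and Cxcl3 values was not tested. The 7 NK cell markers summed to 1.33 to 3.06 CPM in liver Treg controls and 0.28 to 1.52 CPM after CCl4, with Ncr1, Klra4, Klra8 and Klra9 at 0 in every library. In liver Tconv, where Xcl1, Ccl4 and Ccl5 were high, they summed to 15.2 to 24.02 CPM in controls and 16.3 to 48.9 CPM after CCl4 and none of the 7 was at 0 throughout. In spleen Tconv, where Xcl1 was 0.77 to 4.73 CPM, they summed to 13.6 to 16.6 CPM in controls and 11.2 to 23.2 CPM after CCl4, overlapping liver Tconv. There Ncr1, Klra4, Klra8 and Klra9 were at 0 in every control, and Ncr1 and Klra8 in every CCl4 library. Single markers differed between the tissues: 3 of the 4 tested (Klre1, Klra9 and Klrb1c) were higher in liver than in spleen Tconv. None was lower, and 27.2% of all genes were called higher there. Of the 4 NK markers tested, all were higher in liver Tconv than in liver Treg, where 27.1% of all genes were. Of 7 NKT-like markers, 5 were higher in liver Tconv and 1 in liver Treg, where 27.1% and 24.7% of all genes were. Between the tissues, 5 of the 7 were higher in liver than in spleen Tconv and none was lower. They summed to 218.6 to 385.2 CPM in liver Tconv controls and 151.5 to 401.5 CPM after CCl4. In spleen Tconv the sums were 54.2 to 68.9 and 62.4 to 84.2 CPM, without overlap with liver. The part of NK and NKT cells in the liver Tconv values was not tested.

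**Figure D5:**
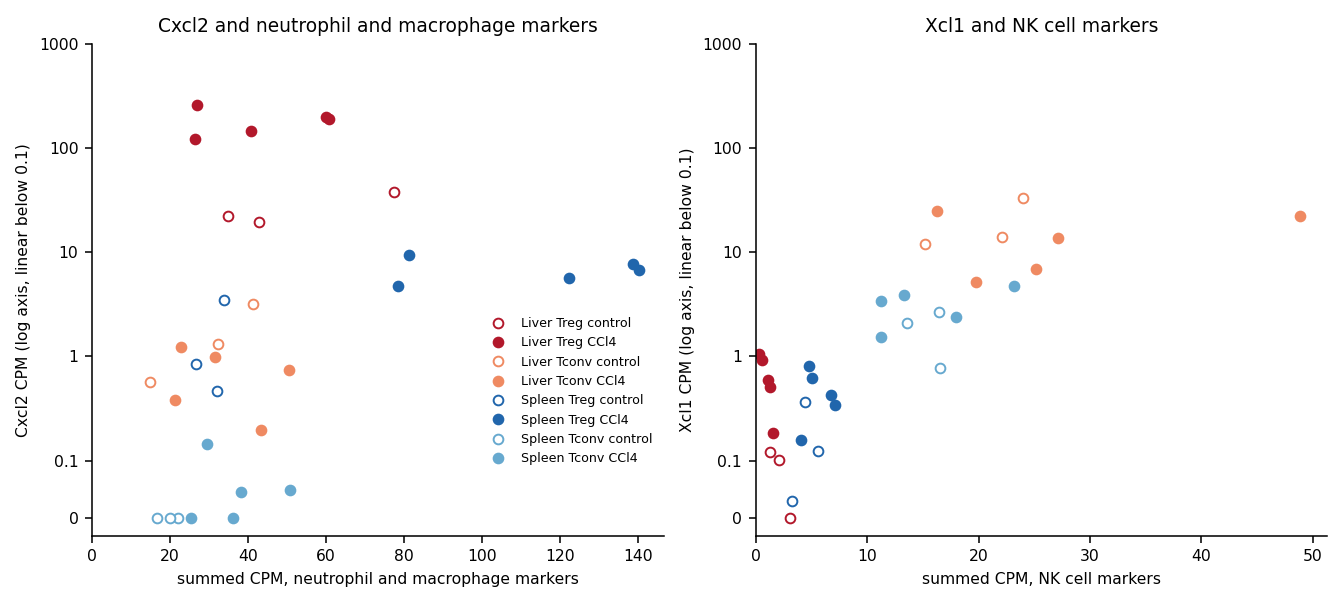
Left, Cxcl2 CPM per library (y axis, log scale that is linear below 0.1 CPM) against the summed CPM of 18 neutrophil and macrophage markers (x axis), and right, Xcl1 CPM against the summed CPM of 7 NK cell markers, with open points for controls and filled points for CCl4. Liver Treg after CCl4 hold 123 to 261 CPM of Cxcl2 at 26.5 to 60.7 CPM of markers. The liver and spleen Tconv libraries overlap in the summed NK markers, with 5.18 to 33.3 and 0.77 to 4.73 CPM of Xcl1. Of the 4 NK markers tested, 3 were higher in liver than in spleen Tconv.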

How the data were processed

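Per the labels' protocols, cells were sorted into Trizol and libraries made with the Clontech Ultra Low v4 and NexteraXT kits. Per the submitters' processing notes, bcl2fastq 2.19, kallisto 0.44.0, DESeq2 and GRCm38.p6 were used. Their annotation release and strandedness were not stated in the sources at hand. The authors deposited, per the file headers, estimated counts and TPM per transcript for each of the 32 libraries. Estimated counts and TPM were summed per gene here, using GENCODE M21 for names: 98.5% of 118489 transcripts matched, and the 1761 unmatched held 0.684 to 0.823% of the counts per library and were left out.

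Rounded estimated counts were fitted with edgeR 4.0.16 (R 4.3.3): TMM scaling, filterByExpr, a quasi-likelihood fit of 8 group means over all 32 libraries and 24 residual degrees of freedom. Benjamini-Hochberg adjustment ran over all 17159 genes, and a gene was called at an adjusted p under 0.05. Tissue and cell type contrasts average control and CCl4. The standard error is the log2 change over the root of F. The fit was tested on simulated counts. Alternatives were DESeq2 1.42.0, its size factors in edgeR, no filter, the compared libraries alone, blocks by sample number, spleen controls 2 and 3 left out, and each library left out in turn.

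Genes were named by rule: all 10 members, the 3 genes most like each by Pearson's r among named genes averaging 5 CPM or more, Foxp3, and up to 4 called genes per list and comparison. Zbtb16, Cxcl1, Cxcr2, Tbx21 and Nkg7 were singled out after their values were seen. Members and lists were chosen with earlier results of these data known. Sample numbers are shared between groups. Of 48 same-numbered pairs, 29 had deviations correlated above 0.1 (r from -0.073 to 0.48), and in 38 the own number correlated best. Whether same-numbered libraries share a source was not established. The main fit took all libraries as independent, which would ignore such a pairing, and the blocks by sample number are the alternatives that allow for it.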

Additional observations from a re-analysis of the deposited data

Results flagged for a closer look

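In the 40 groups of 5 libraries, 10 members in 4 CCl4 groups, Dixon's test at its 95% value singled out 4 single libraries, each the highest of a CCl4 group. Chance alone gives about 1 in 20 groups. Cxcl10 stood at 50.5 CPM in liver Treg replicate 4, where the other 4 had 31.3 to 36.1. Ccl3 stood at 9.598 CPM in spleen Tconv replicate 4, where the others had 0.72 to 2.81. Cxcl16 stood at 6.48 CPM in liver Tconv replicate 2, where the others had 2.46 to 3.59. Cxcl3 stood at 0.12 CPM in spleen Tconv replicate 2, where the others had 0.04 to 0.05, close to the detection limit.

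The remaining entries are differences between 2 effects, each tested in edgeR with an adjusted p under 0.05. The CCl4 effect in liver Treg minus that in liver Tconv was 4.13 for Cxcl2, 3.65 for Cxcl3 and 3.45 for Xcl1. The CCl4 effect in liver Treg minus that in spleen Treg was 2.63 for Cxcl3 and -1.87 for Cxcl10. The liver excess in Treg minus that in Tconv was -1.61 for Cxcl3, -0.999 for Cxcl10, -1.27 for Ccl5, -3.95 for Ccl20 and -3.14 for Xcl1. The values of Cxcl3 and Ccl20 in the last comparison rest on spleen Tconv controls with at most 3 counts in all and depend on the prior count of the fit. None of the 5 was called without spleen controls 2 and 3.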

How the results depend on the processing

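Over the settings that leave out 1 library each, 1824 of 1920 values kept their direction and their side of the threshold, and over the other settings 783 of 827 did. The number of members called moved by over 1.5 times in the comparisons that follow, and the cause was not tested. In liver Treg after CCl4 it went from 3 to 6 with the compared libraries alone and to 5 in DESeq2. In spleen Treg it went from 1 to 0 with the libraries alone, 2 in DESeq2 and 0 without spleen controls 2 and 3, and ran from 0 to 2 when 1 library was left out. In spleen Tconv it went from 1 to 0 with the libraries alone and to 0 without those controls, and ran from 0 to 1. For the CCl4 effect of liver Treg minus spleen Treg it was 0 without those controls, against 2, and ran from 1 to 2. For liver Tconv minus spleen Tconv it was 1 in DESeq2 against 0, and ran from 0 to 1. For the tissue difference of Treg minus Tconv it was 0 without those controls, against 5, and ran from 3 to 6. Smaller moves came without those controls between liver and spleen Treg, from 8 to 6, and between spleen Treg and Tconv, from 9 to 6, and without the filter for liver Treg minus liver Tconv, from 3 to 2.

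With a replicate block by sample number, or by number within treatment, 1 member, Cxcl10, was called for liver Tconv minus spleen Tconv, against 0. The block by number gave 4 members in liver Treg after CCl4, Cxcl10 added (adjusted p = 0.0457), and 7 against 8 between liver and spleen Treg, without Ccl20. Under these 2 blocks Ccl4 turned to 0.0794 and 0.41 for liver Tconv minus spleen Tconv and to 0.0662 and 0.22 for spleen Treg minus spleen Tconv. The sample's own number correlated best in 38 of 48 pairs. Other sign changes, none in a called value, came without spleen controls 2 and 3: Ccl1 at -0.0396 and Ccl4 at -0.20 in spleen Treg, Xcl1 at 0.88 between liver and spleen Treg, Ccl20 at 0.41 and Xcl1 at -0.89 for liver Treg minus spleen Treg, and Ccl4 at 0.81 for liver Tconv minus spleen Tconv. In the last comparison Ccl3 was -0.0007 without the filter and -0.0002 in DESeq2.

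Leaving out 1 library gave these ranges across 0, none of them of a called value. After CCl4, Cxcl16 in liver Treg ran from -0.031 to 0.44. In liver Tconv, Cxcl10 ran from -0.64 to 0.21, Ccl20 from -0.24 to 1.18 and Xcl1 from -0.73 to 0.16. In spleen Treg, Ccl1 ran from -0.31 to 0.99. Xcl1 between liver and spleen Treg ran from -0.57 to 0.17, and Ccl1 between spleen Treg and Tconv from -0.0935 to 0.60. For liver Treg minus liver Tconv, Ccl3 ran from -0.59 to 1.03, Ccl4 from -1.42 to 0.85 and Ccl5 from -0.48 to 0.17. For liver Treg minus spleen Treg, Cxcl2 ran from -0.56 to 1.05, Ccl3 from -0.21 to 0.96, Ccl4 from -0.22 to 1.10 and Ccl20 from -0.52 to 0.36. For liver Tconv minus spleen Tconv, Ccl3 ran from -0.67 to 1.14 and Ccl4 from -1.08 to 1.57. For spleen Treg minus spleen Tconv, Ccl3 ran from -0.60 to 1.20 and Ccl4 from -1.33 to 0.37. Depth limits the sparse members most: Ccl1, Ccl20 and, in Treg, Xcl1 rest on few counts per library.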
